A study of Mus musculus with 4 samples.

Results

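The genes described here make and recycle coenzyme A in mouse inguinal white adipose tissue (iWAT). They are the pantothenate kinases *Pank1*, *Pank2*, *Pank3* and *Pank4*, the synthase *Coasy*, and the acyl-CoA thioesterases *Acot1*, *Acot2*, *Acot4*, *Acot11* and *Acot13*. *Pank1* and *Acot11* were picked because they stood out in beige adipocytes in these data, and the other genes were added by function, which gives 10 of the 17196 protein-coding genes with a peak. The difference of *Pank1* and *Acot11* between beige and white adipocytes is therefore described without a test.

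Coenzyme A is the carrier to which fatty acids are joined before they are burned or built into lipid. Pantothenate kinases catalyse the step that controls its synthesis from pantothenate (vitamin B5), and COASY catalyses the last steps. Acyl-CoA thioesterases do the reverse of acyl-CoA synthetases, since they split an acyl-CoA into a free fatty acid and coenzyme A. Thermogenic fat burns fatty acids to make heat, and ACOT11 was first known as a brown fat thioesterase induced by cold.

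Chromatin accessibility of single nuclei (snATAC-seq) was measured in iWAT of 21 male C57BL/6 mice aged 8 weeks, for which the labels give no genetic change. There were 3 mice in each of 7 groups, all first kept at 22 °C. The groups were day0RT (no treatment), cold at 6.5 °C for 1, 3 or 7 days (day1C, day3C and day7C), and CL-316,243 at 1 mg/kg for 1, 3 or 7 days (day1CL, day3CL and day7CL). CL is a selective agonist of the adrenergic receptor Adrb3 and acts without cold.

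The deposited matrix holds 189598 peaks and 32552 nuclei, and an entry of 1 marks a nucleus with reads in a peak. For each mouse and annotated cell type with at least 10 nuclei, the entries were added up. Gene accessibility stands for all peaks on the gene body or the 2000 bases upstream, as counts per 1e6 gene counts of that mouse and cell type (CPM). For a single peak, CPM is per 1e6 counts over all peaks, so it is not on the scale of the gene values. A sum over nuclei cannot tell fewer nuclei with an open gene from fewer reads per nucleus. Mice had 1340376 to 6916698 counts, and the median adipocyte nucleus had 1496 (day1CL) to 3546 counts (day7CL). Of all nuclei, 8739 carried a barcode that also occurs in another mouse, and the deposited annotation was taken as it is. The adipocyte labels were checked on 6 adipocyte markers, which had a median summed accessibility of 1834 CPM in white and 1801 CPM in beige adipocytes against at most 826 CPM elsewhere. For the 6 beige markers the median was 1173 CPM in beige nuclei against 637 CPM in white ones. Nuclei labelled vascular smooth muscle cells (VSMCs) had 536 CPM over 4 skeletal muscle markers, against at most 62.1 CPM in any other cell type.

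*Pank1* (ENSMUSG00000033610) lies on chromosome 19 from 34806940 to 34879455 (mm10, minus strand), and 15 peaks count for it. *Acot11* (ENSMUSG00000034853) lies on chromosome 4 from 106744555 to 106804998 (minus strand), with 12 peaks. *Pank3* (chromosome 11 from 35769484 to 35791285, plus strand) has 6 peaks, *Pank2* on chromosome 2 has 6, *Pank4* on chromosome 4 has 5 and *Acot13* on chromosome 13 has 4. *Acot2*, *Acot1* and *Acot4* follow each other on chromosome 12 between 83987861 and 84048601, with 1, 3 and 1 peaks, and *Coasy* on chromosome 11 has 1. *Acot1* and *Acot2* are close copies of each other, so their values are uncertain where a read could not be assigned to 1 of them. In addition, 1 peak each of *Pank4*, *Acot4* and *Acot13* also counts for a neighbouring gene (*Hes5*, *Gm49366* and *Tdp2*).

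The sequences before the starts of *Pank1*, *Acot11* and *Pank3* are shown because the results below set the starts of these genes against the rest of their length. RefSeq (GRCm38.p6) gave 12 start windows for 8 of the 10 genes. Each line holds the 250 bases upstream of a start, 5′ to 3′ on the strand of the gene, and capitals mark TATAAA or GGGCGG on either strand.
*Pank1* main start, chr19:34879456-34879705: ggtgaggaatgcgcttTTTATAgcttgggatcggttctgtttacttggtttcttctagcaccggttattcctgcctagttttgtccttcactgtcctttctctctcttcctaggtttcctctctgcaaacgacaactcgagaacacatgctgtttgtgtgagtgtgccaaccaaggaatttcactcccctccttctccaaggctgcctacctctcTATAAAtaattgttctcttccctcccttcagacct
*Pank1* inner start, chr19:34877918-34878167: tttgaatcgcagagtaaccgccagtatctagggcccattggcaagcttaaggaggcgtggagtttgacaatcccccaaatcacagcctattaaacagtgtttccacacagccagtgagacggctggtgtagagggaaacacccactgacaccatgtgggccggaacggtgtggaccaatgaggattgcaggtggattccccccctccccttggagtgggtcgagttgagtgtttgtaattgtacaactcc
*Acot11* main start, chr4:106805008-106805257: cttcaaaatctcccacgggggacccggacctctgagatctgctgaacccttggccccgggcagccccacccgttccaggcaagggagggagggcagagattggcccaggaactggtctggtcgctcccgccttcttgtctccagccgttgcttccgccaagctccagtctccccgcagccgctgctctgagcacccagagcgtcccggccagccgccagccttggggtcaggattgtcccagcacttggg
*Acot11* inner start, chr4:106799832-106800081: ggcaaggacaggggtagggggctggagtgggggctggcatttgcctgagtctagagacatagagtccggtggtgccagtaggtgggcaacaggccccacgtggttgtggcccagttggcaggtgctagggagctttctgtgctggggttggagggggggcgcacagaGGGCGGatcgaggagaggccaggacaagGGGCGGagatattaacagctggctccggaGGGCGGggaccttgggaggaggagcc
*Pank3* start, chr11:35769245-35769494: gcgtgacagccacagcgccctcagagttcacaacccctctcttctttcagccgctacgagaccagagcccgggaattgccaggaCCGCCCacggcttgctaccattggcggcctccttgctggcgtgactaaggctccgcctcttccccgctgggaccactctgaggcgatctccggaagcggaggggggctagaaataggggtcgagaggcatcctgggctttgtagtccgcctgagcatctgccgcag
The main start of *Pank1* had 2 matches to TATAAA and 46.4% G and C, and its inner start had no match and 52.8%. The main start of *Acot11* had neither motif and 66.4% G and C, its inner start had 3 matches to GGGCGG and 65.2%, and the start of *Pank3* had 1 match to GGGCGG and 63.6%. Of 32817 RefSeq windows of 250 bases, 12.37% held TATAAA, 32.72% held GGGCGG, and the median of G and C was 52.4%. *Acot4* held 3 matches to TATAAA, *Acot1* and *Pank4* each held 1 to GGGCGG, and so did 2 of the 3 windows of *Pank2*.

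Inside the genes, the sequences shown are the central 300 bases of the intronic peak of *Pank1* and of *Acot11* that differed most between beige and white nuclei as a ratio among the 3 peaks with the largest difference in CPM. They are written on the plus strand, and capitals mark AAAGGTCA, the consensus of NR4A nuclear receptors (NBRE), on either strand.
*Pank1* intron, chr19:34819555-34819854: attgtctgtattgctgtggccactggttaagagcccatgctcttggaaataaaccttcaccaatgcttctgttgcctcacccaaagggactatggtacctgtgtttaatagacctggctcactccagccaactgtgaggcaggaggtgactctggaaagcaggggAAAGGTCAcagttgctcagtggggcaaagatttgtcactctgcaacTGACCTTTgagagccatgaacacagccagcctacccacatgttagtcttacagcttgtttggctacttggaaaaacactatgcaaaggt
*Acot11* intron, chr4:106764255-106764554: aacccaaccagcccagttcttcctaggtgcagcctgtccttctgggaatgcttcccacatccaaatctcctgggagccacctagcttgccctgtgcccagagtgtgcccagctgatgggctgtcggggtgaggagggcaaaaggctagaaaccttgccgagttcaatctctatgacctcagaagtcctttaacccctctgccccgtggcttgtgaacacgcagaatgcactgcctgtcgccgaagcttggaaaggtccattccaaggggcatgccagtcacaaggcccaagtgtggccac
The *Pank1* window held 2 matches and the *Acot11* window held none. The NBRE letters were searched after the sequences had been seen, so the count is only a description. Of the 54 peaks of the 10 genes, 5 held a match, while 3.796% of all 189598 peaks and 7.005% of the 24854 peaks with enough counts to be tested between beige and white adipocytes did. Of the 5, 1 held 2 matches, as did 0.3219% of the tested peaks. TCAAGGTCA, the element of estrogen-related receptors, was in 0 of the 54 peaks, 1.13% of all peaks and 2.454% of the tested ones. TGACGTCA, the cAMP response element, was in 0 of the 54, 0.7484% of all peaks and 2.406% of the tested ones. The consensus of MEF2 factors was in 1 peak, in a *Pank1* intron, in 1.367% of all peaks and 2.056% of the tested ones. All letters were searched on both strands, and the absence of a match says nothing of a factor.

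The 10 genes differed in where they were accessible. *Pank1* reached 316.5 CPM ± 65.7 (SD) over the 19 mice with a beige sum, its highest level, and B cells came next with 161 CPM ± 20.99 (n = 21). White adipocytes had 108 CPM ± 21.6 (n = 21), which lay within 1 SD of macrophages (109 CPM), dendritic cells (115 CPM), VSMCs (128 CPM) and T cells (87.2 CPM). *Acot11* was also highest in beige adipocytes, with 305.5 CPM ± 82.5 (n = 19), followed by VSMCs (181 CPM ± 57.1, n = 10), T cells (156 CPM ± 39.2, n = 20) and white adipocytes (125 CPM ± 28.6, n = 21). B cells, which were the second for *Pank1*, were near the bottom for *Acot11*, with 40.7 CPM ± 10.0. For both genes the step from beige adipocytes to the next cell type was larger than 1 SD, while most other neighbours in the order were not separated by 1 SD.

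*Pank3*, which encodes another active pantothenate kinase, had the opposite order in fat. It was accessible almost only in adipocytes, with 102 CPM ± 12.6 in white (n = 21) and 64.4 CPM ± 21.8 in beige (n = 19), and both steps down the order, to beige adipocytes and then to the progenitors called APC1 (17.0 CPM ± 32.2, n = 20), were larger than 1 SD. The other 9 cell types had 6.19 to 11.7 CPM, and in each of these at least 2 mice were at 0. *Acot1*, a cytosolic thioesterase, was highest in beige adipocytes (47.2 CPM), APC2 progenitors (46.4 CPM) and white adipocytes (32.1 CPM), and it was at most 3.88 CPM in VSMCs and the 6 immune cell types. *Acot4*, a peroxisomal thioesterase, was at 18.6 CPM in white adipocytes, 23.6 CPM in beige ones and at most 6.12 CPM elsewhere.

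The remaining genes were accessible everywhere. *Coasy* ranged from 41.8 to 66.4 CPM over the 12 cell types, *Pank2* from 77.1 to 126 CPM, *Pank4*, whose protein lacks pantothenate kinase activity, from 38.0 to 94.7 CPM, and *Acot13*, a thioesterase found with mitochondria, from 52.8 to 98.0 CPM. *Acot2*, the mitochondrial relative of *Acot1*, was lowest in the vascular endothelial cells (25.3 CPM) and highest in B cells (77.2 CPM), and white (31.0 CPM) and beige adipocytes (32.8 CPM) were in the lower part. No pair of neighbours in the order of these 5 genes was separated by 1 SD. Per kilobase of gene and upstream region, the level in white adipocytes was 4.30 CPM for *Pank3*, 3.28 for *Pank4*, 2.90 for *Pank2* and 1.45 for *Pank1*. In beige adipocytes *Pank1* and *Pank3* had changed places, with 4.25 CPM per kilobase for *Pank1*, 3.63 for *Pank4*, 3.26 for *Pank2* and 2.71 for *Pank3*.

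**Figure D1:**
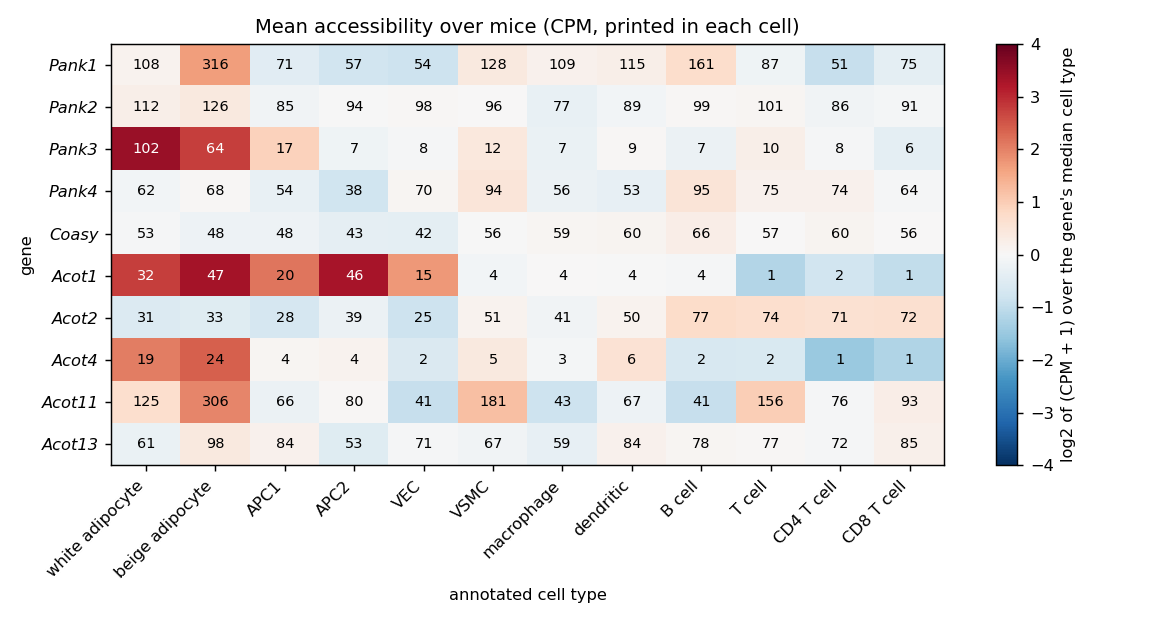
Mean accessibility over mice of each gene (rows) in the 12 annotated cell types (columns); the printed number is CPM and the colour is the log2 ratio of CPM + 1 to the median cell type of that gene. *Pank1* and *Acot11* are darkest in beige adipocytes, *Pank3* in white adipocytes, and *Coasy* stays between 41.8 and 66.4 CPM.

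Within fat, the beige and white nuclei of the same mouse were set side by side. All 19 mice with a beige sum had more *Pank1* in beige than in white nuclei. The beige values ran from 228 to 438 CPM with a median of 317 CPM, the white values from 78.2 to 149.1 CPM with a median of 110.0 CPM, and the ranges did not touch. Among the 12770 genes compared, 8 (0.0626%) had every beige mouse above every white mouse. For *Acot11*, the beige values ran from 169 to 461 CPM (median 311 CPM) and the white values from 76.4 to 182 CPM (median 120 CPM), and 18 of the 19 beige values lay above all white values. Log2 differences between beige and white nuclei come from a fit of all sums with terms for group and population, not paired by mouse. The ratio of means was 2.93 for *Pank1* (log2 difference 1.47, standard error 0.073) and 2.44 for *Acot11* (1.14, standard error 0.074). The nuclei were divided into white and beige from the same counts, and the genes were chosen by this difference, so neither value is a test.

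*Pank3* had less accessibility in beige than in white nuclei in 18 of 19 mice. Its beige values ran from 19.9 to 106 CPM (median 62.2 CPM) and its white values from 82.9 to 126 CPM (median 106.5 CPM), a ratio of means of 0.63 (log2 difference −0.62, standard error 0.095). *Acot13* was at 61.2 CPM in white and 98.0 CPM in beige nuclei, and higher in beige in 14 of 19 mice (ratio 1.6, fitted log2 difference 0.43, standard error 0.096). *Acot1* was likewise higher in 14 of 19 mice (47.2 against 32.1 CPM, ratio 1.47, fitted log2 difference 0.37, standard error 0.13), although 2 beige sums and 1 white sum were at 0. The ratio was 0.91 for *Coasy*, 1.06 for *Acot2*, 1.11 for *Pank4*, 1.13 for *Pank2* and 1.27 for *Acot4*, and the white and beige ranges overlapped for each of them. The fitted log2 differences were −0.16, −0.02, 0.12, 0.06 and 0.16 in the same order, with standard errors of 0.087 to 0.17. *Acot2* was lower in beige nuclei in 12 of 19 mice.

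**Figure D2:**
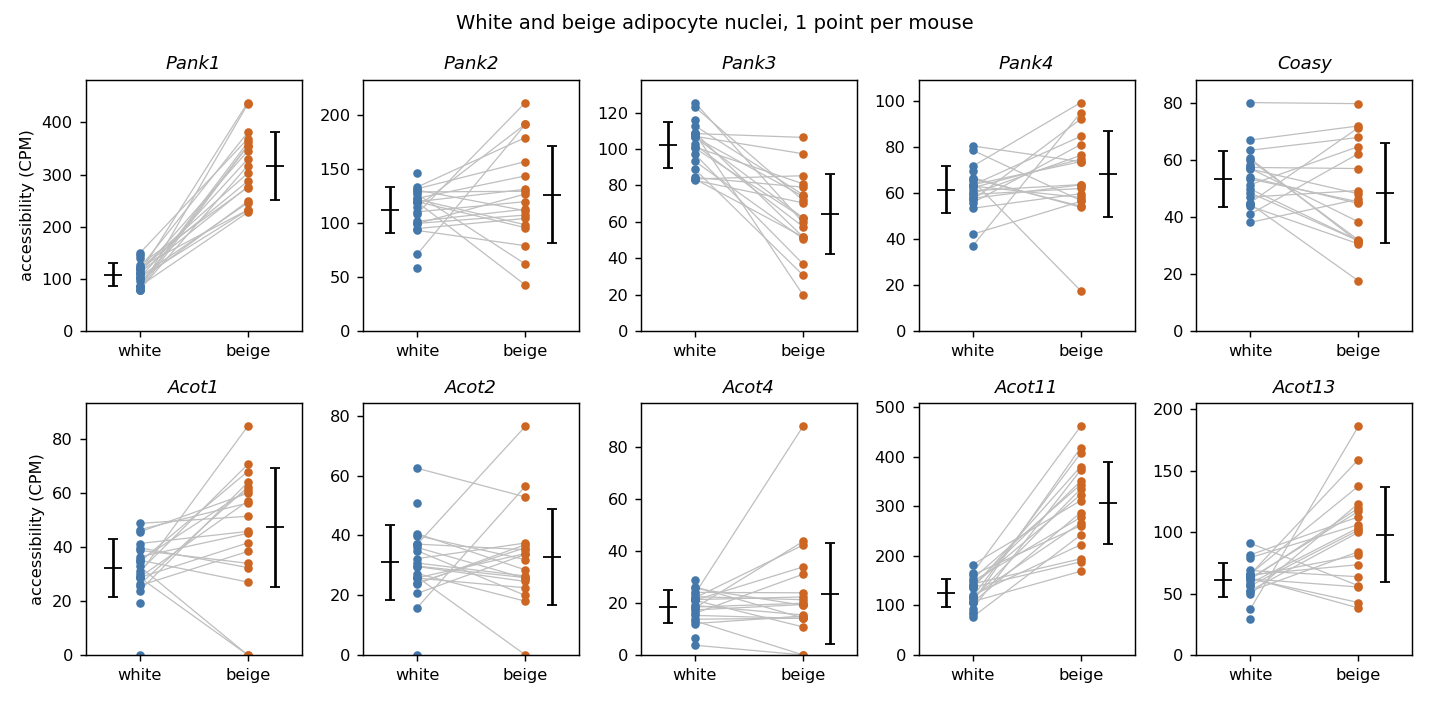
Accessibility in CPM of each gene in white and beige adipocyte nuclei, with 1 point per mouse, a grey line between the nuclei of the same mouse and a black mark for mean ± SD (21 white and 19 beige sums). The ranges are apart for *Pank1*, nearly apart for *Acot11*, and *Pank3* falls from white to beige in 18 of 19 mice.

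The mean over mice was higher in beige nuclei at every peak of *Pank1* and *Acot11*, but some peaks rested on few counts. How many of all peaks had a higher mean in beige nuclei was not counted. All 15 peaks of *Pank1* had a beige to white ratio above 1, from 1.59 to 11.5 with a median of 4.68. The peak 8374 bases past the gene start (ratio 9.39) had 7 beige and 5 white counts and was higher in beige in 6 of 19 mice. The peak 25092 bases past it (ratio 2.67) was higher in beige in 7 of 19 mice. The peak over both RefSeq starts of *Pank1* (chromosome 19 from 34877656 to 34879651) was at 45.7 CPM ± 6.84 in white nuclei and at 79.7 CPM ± 17.6 in beige ones, a beige to white ratio of 1.75, and was open in 17.5% of white and 30.9% of beige nuclei. The intronic peak from 34819354 to 34820055, whose sequence is shown above, was at 2.37 CPM ± 1.79 in white nuclei and at 27.2 CPM ± 17.2 in beige ones, a beige to white ratio of 11.5, and was open in 10.1% of beige and 1.16% of white nuclei. A further intronic peak from 34827660 to 34828474 had 25.3 CPM in beige against 7.72 CPM in white nuclei, a ratio of 3.28. The start of *Pank1* was thus open in white nuclei too, while the intronic peak was rarely open there.

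All 12 peaks of *Acot11* had a ratio above 1, from 1.29 to 10.6 with a median of 2.75. The lowest ratio was at its most open peak, 26316 bases past the gene start, with 49.8 CPM in beige against 38.5 CPM in white nuclei. The peak over the main start (chromosome 4 from 106803781 to 106805467) was at 8.05 CPM ± 3.98 in white nuclei and at 18.01 CPM ± 11.96 in beige ones. The peak over the inner start, 5003 bases further in the direction of transcription (106799646 to 106800345), overlaps 4 annotated transcript starts and had 41.1 CPM ± 23.1 in beige against 10.6 CPM ± 5.41 in white nuclei, a ratio of 3.89. In introns, the peak 40594 bases past the start (106763982 to 106764827) had 34.8 against 8.10 CPM (ratio 4.29), and the one 16145 bases past it (106788529 to 106789177) had 35.3 against 10.7 CPM (ratio 3.31). In beige nuclei, the inner start of *Acot11* was therefore more open than the main start, by 41.1 to 18.01 CPM. No p is given for these peaks, which share the nuclei that chose the genes.

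The 6 peaks of *Pank3* went the other way, all with ratios below 1 (0.25 to 0.83). Its annotated start lay in no listed peak, and the nearest ones were centred at −1054 bases (19.9 CPM in beige, 23.9 CPM in white nuclei) and 1437 bases from the start (7.99 and 14.4 CPM). The peaks of *Acot13* had ratios from 1.31 at its promoter to 2.23 in an intron. That intronic peak was higher in beige in only 9 of 19 mice (fitted log2 difference 0.32, standard error 0.22). At the promoter peak over the gene start, the ratio was 1.91 for *Acot1*, 1.12 for *Pank2* and 0.92 for *Pank4* and for *Coasy*. *Acot1* and *Pank4* each have a further promoter peak that does not overlap the start. That of *Acot1*, centred 2192 bases past the start, had a ratio of 1.317 and was higher in beige in 11 of 19 mice. Its fitted log2 difference was −0.027 (standard error 0.188). The further peak of *Pank4* had a ratio slightly above 1, but on 6 beige and 51 white counts. The only peak of *Acot2* (ratio 1.07) and the only one of *Acot4* (1.29) lie at their promoters.

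**Figure D3:**
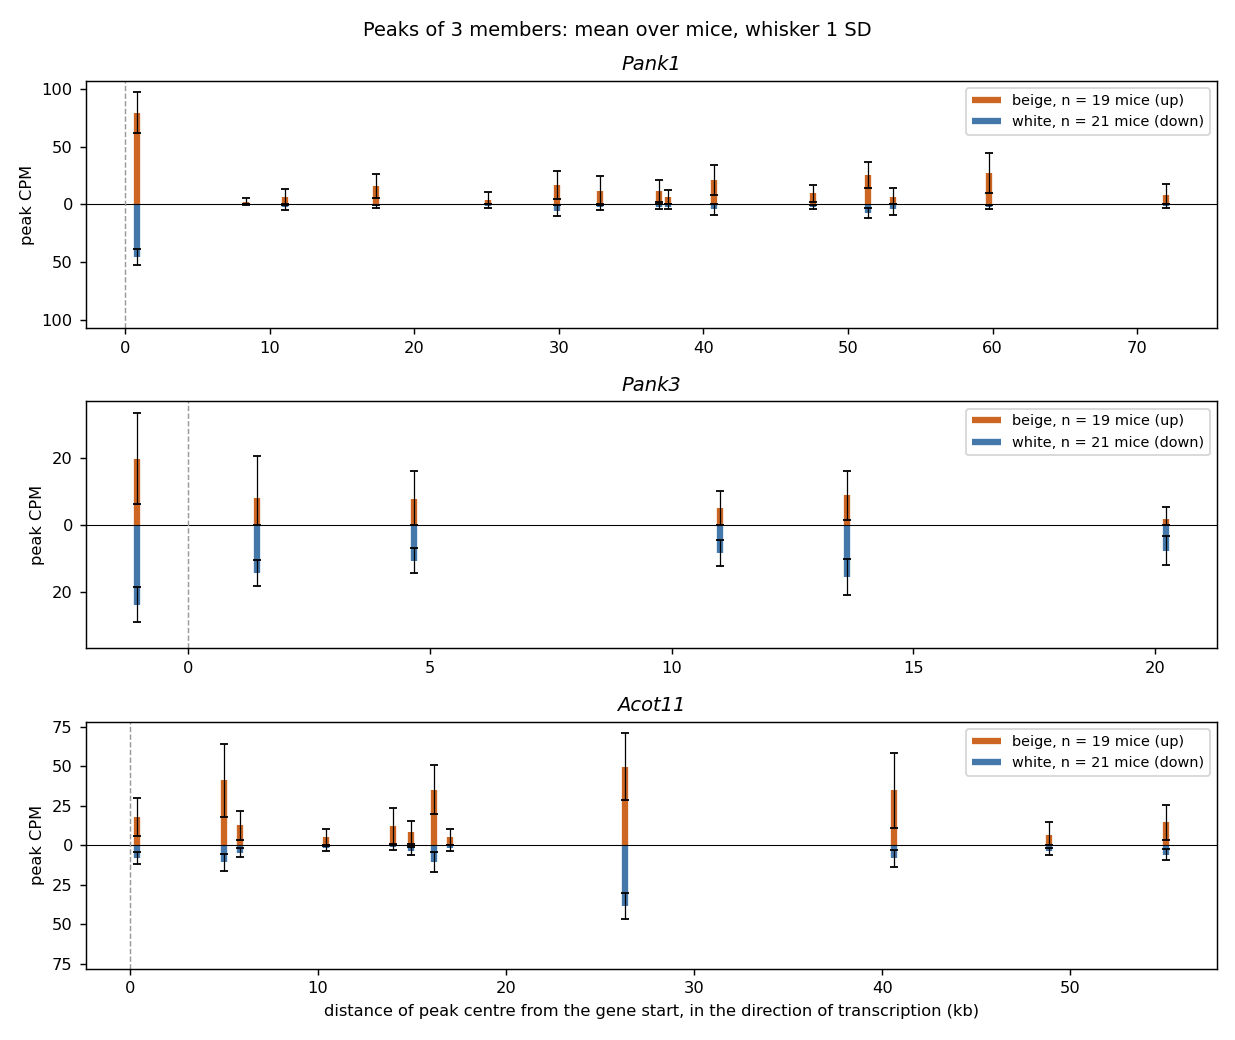
Mean peak accessibility (CPM, whisker 1 SD over mice) against the distance of the peak centre from the gene start in kilobases, with beige nuclei drawn upward and white nuclei downward. Peaks of *Pank1* and *Acot11* are taller in beige nuclei along the whole gene, with the *Pank1* promoter peak at 79.7 against 45.7 CPM, and the 6 peaks of *Pank3* are taller in white nuclei.

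Among the 12731 genes compared over the 40 white and beige sums, those whose log2(CPM + 1) followed *Pank1* most closely included *Slc4a4* (r = 0.951), *Sept9* (0.917), *Gnao1* (0.914) and *Egln1* (0.910). *Acot11* stood at rank 8 for *Pank1* (r = 0.891). For *Acot11* they were *Gnao1* (0.894), *Pank1* (0.891), *Kcnk3* (0.890), *Adra1a* (0.887) and *Sept9* (0.879). *Pank3* ran against both, with r of −0.645 and −0.622. White and beige sums form separate groups and share mice, so these values mostly describe the step between the populations and carry no p.

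The next question was whether the treatments changed these genes in fat as a whole, so white and beige nuclei of a mouse were summed together and each treated group was compared with day0RT. *Pank1* was at 106, 98.3 and 94.7 CPM in the 3 day0RT mice, and at 199, 172 and 164 CPM in the day7C mice and 155, 127 and 203 CPM in the day7CL mice. All 6 mice of day 7 were above all day0RT mice. *Acot11* was at 100.2, 109 and 127 CPM in day0RT, 277, 193 and 206 CPM in day7C and 179.5, 144.5 and 199.5 CPM in day7CL, again with no overlap. Here and below, it was not counted how many of all genes had groups without overlap, so this only describes the mice.

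*Pank1* rose on day 7 of cold (log2 fold change 0.83, standard error 0.15, adjusted p = 5.88e-05, edgeR) and of CL (0.67, standard error 0.14, adjusted p = 0.00112). *Acot11* rose on day 7 of cold (0.96, standard error 0.14, adjusted p = 3.39e-06), on day 3 of CL (0.51, standard error 0.15, adjusted p = 0.0268) and on day 7 of CL (0.60, standard error 0.15, adjusted p = 0.00441). Of the 60 combinations of a gene and a treated group, these 5 rose and 0 fell, and 14 had an unadjusted p below 0.05. Among all 14429 genes tested, 1439 (day1C) to 3230 (day7CL) per treated group had an unadjusted p below 0.05. In cold, 0, 0 and 2 of the 10 genes rose on days 1, 3 and 7, while 0.104%, 0.894% and 2.97% of the 14429 genes tested did. In CL, 0, 1 and 2 rose, while 1.15%, 3.08% and 4.64% of all genes did. *Pank1* and *Acot11* were picked as high in beige nuclei, whose share also rose, so these shares of all genes are not a like background for them. The p-values measure the spread between these mice. The rise of *Acot11* on day 3 of CL was the least firm, since DESeq2 did not call it (0.55, adjusted p = 0.0766) and neither did edgeR without any 1 of the 3 day0RT mice or of the first and second day3CL mice (0.41 to 0.64, adjusted p from 0.0522 to 0.19). On day 7 of CL the call of *Acot11* was lost without the first day0RT mouse (0.51, adjusted p = 0.0528) or the first day7CL mouse (0.55, adjusted p = 0.0685). *Acot13* had a value of 0.45 on day 7 of CL (adjusted p = 0.0837), and single mice moved it in both directions, to 0.15 without the first day7CL mouse (adjusted p = 0.816) and to 0.55 without the second (adjusted p = 0.0323). Peaks that count for a single gene alone gave 0.93 (adjusted p = 0.0121). *Pank3* had values from −0.12 to 0.34.

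Over all days, the log2 accessibility was fitted to log2(day + 1) in the 12 mice of day 0 and each treatment, which share the day0RT mice. *Acot11* rose by 0.33 per unit in cold (standard error 0.046, adjusted p = 3.26e-06) and by 0.23 in CL (standard error 0.050, adjusted p = 0.00567). *Pank1* rose by 0.24 in cold (standard error 0.046, adjusted p = 0.000725) and by 0.20 in CL (standard error 0.050, adjusted p = 0.0171). The other 8 genes did not pass in either treatment. Among all genes, 3.46% rose with the day in cold and 2.34% in CL, against 2 of the 10 genes each time. These 2 were picked as high in beige nuclei, so the share of all genes is not a like background for them. The rise of *Pank1* in CL was lost without the third day0RT mouse (0.18, adjusted p = 0.102) or without the first or the third day7CL mouse (0.21 and 0.16, adjusted p = 0.0697 and 0.0557).

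The share of beige nuclei moved over the same days. Of the adipocyte nuclei, beige nuclei made up 7.69% to 12.2% in day0RT, 26.1% to 32.5% in day7C and 14.5% to 23.5% in day7CL. *Pank1* and *Acot11* were picked as high in beige nuclei. Their rises in the joint sums, over days and against day0RT, are thus not independent of that choice. The fit was therefore repeated in white nuclei alone. Over all genes and both treatments, this gave 629 trend calls against 1232 in the joint sums. In cold, *Pank1* then had a slope of 0.04 (adjusted p = 0.798) and *Acot11* of 0.17 (adjusted p = 0.0556), and neither passed. In CL, both still rose, by 0.19 (*Pank1*, adjusted p = 0.0353) and 0.24 (*Acot11*, adjusted p = 0.00625). In white nuclei *Pank1* was at 86.0, 78.2 and 79.1 CPM in day0RT and at 110.0, 119 and 79.0 CPM in day7C, with 1 mouse of day7C inside the day0RT range. Its value on day 7 of cold was 0.29 there (adjusted p = 0.48). In day3CL it was at 118, 123 and 111 CPM and in day7CL at 127, 104 and 149.1 CPM, all above day0RT, and the rises passed (0.54, adjusted p = 0.023, and 0.62, adjusted p = 0.00755). *Acot11* in white nuclei rose on day 3 (0.62, adjusted p = 0.00428) and day 7 of CL (0.64, adjusted p = 0.0037), and on day 7 of cold it had a value of 0.49 (adjusted p = 0.0981). Passing in CL and missing in cold is not a difference between them. In white nuclei, CL minus cold was 0.40 on day 3 (adjusted p = 0.0538) and 0.34 on day 7 (adjusted p = 0.486) for *Pank1*, and 0.21 and 0.15 for *Acot11* (adjusted p = 0.446 and 0.846).

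**Figure D4:**
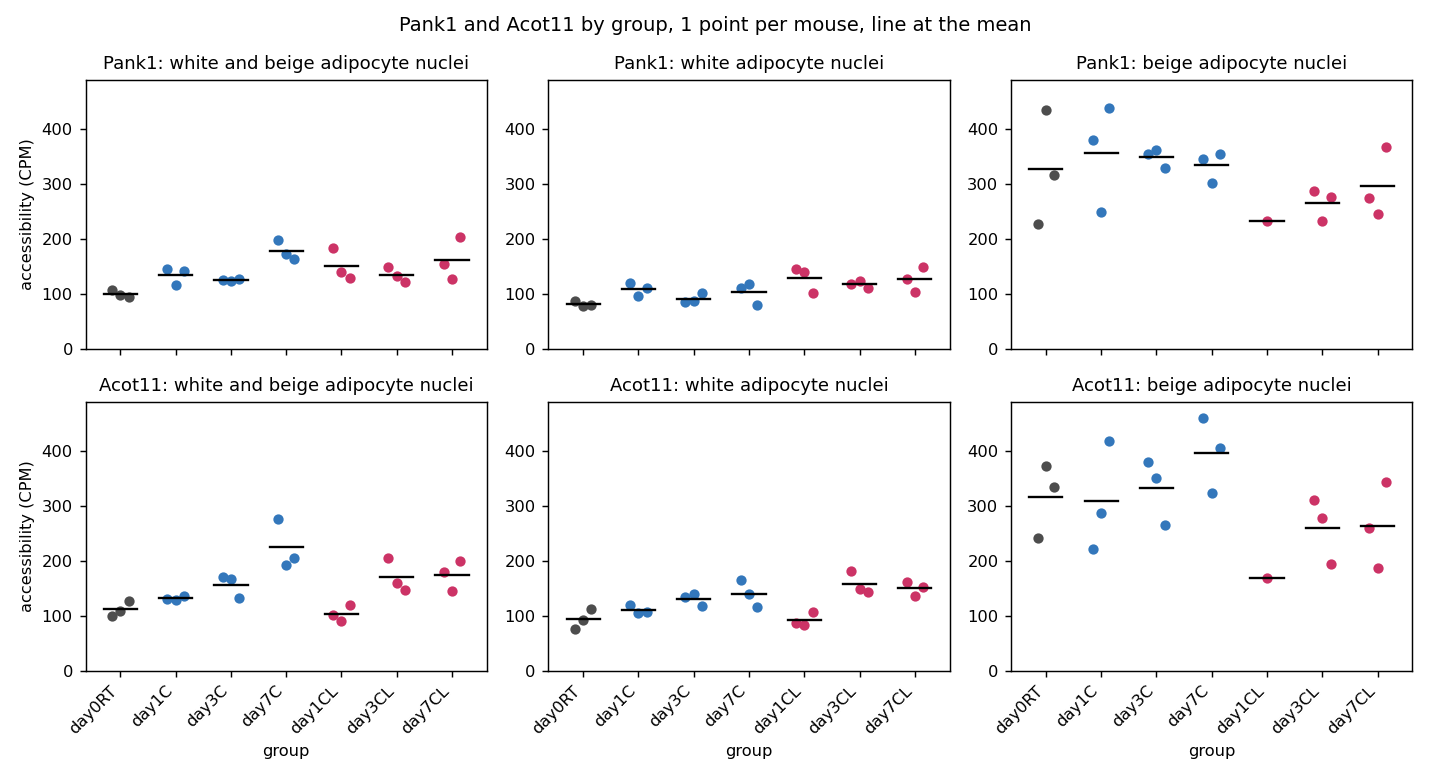
Accessibility (CPM) of *Pank1* (top) and *Acot11* (bottom) in each mouse by group, for white and beige nuclei together, white nuclei and beige nuclei, with a line at the group mean. Together, both genes are higher on day 7 than in day0RT, while the beige values of CL (232 to 368 CPM for *Pank1*) lie mostly below those of cold (249 to 438 CPM).

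CL and cold were also compared directly at the same day in white and beige nuclei together. None of the 10 genes passed in any of the 30 comparisons by edgeR or DESeq2, and 6 had an unadjusted p below 0.05. Among all genes, 0.922%, 1.46% and 0.111% changed in either direction on days 1, 3 and 7. An unadjusted p below 0.05 was found for 1843, 1741 and 1231 of the 14429 genes tested. On day 7 the CL minus cold difference was −0.16 for *Pank1* (adjusted p = 0.762) and −0.36 for *Acot11* (adjusted p = 0.244).

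Within beige nuclei *Acot11* and *Pank1* were lower in CL than in cold. *Acot11* was at 222, 287 and 418 CPM in the day1C mice, 380, 350 and 266 CPM in day3C and 461, 323 and 407 CPM in day7C. In CL it was at 169 CPM in the only day1CL mouse with at least 10 beige nuclei, 311, 277 and 194 CPM in day3CL and 261, 188 and 343 CPM in day7CL. *Pank1* was at 356, 362 and 330 CPM in day3C against 287, 232 and 277 CPM in day3CL, with no overlap, and at 345, 303 and 355 CPM in day7C against 275, 246 and 368 CPM in day7CL, with overlap. Averaged over days, *Acot11* fell by 0.57 on the log2 scale in CL against cold (standard error 0.12, adjusted p = 0.00118) and *Pank1* fell by 0.41 (standard error 0.12, adjusted p = 0.028). These were 2 of the 10 genes, of which 6 passed the filter on low counts, while 1.06% of the 7353 genes tested fell. Both were picked as high in beige nuclei, so that share is not a like background for them. *Pank3* had a difference of 0.30 (adjusted p = 0.523), *Pank4* of −0.23 and *Pank2* of −0.03.

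Each group had the same weight, so the only day1CL sum counted as much as the 3 sums of day3CL or of day7CL. *Acot11* kept its call without each of the 21 mice in turn, with values from −0.64 to −0.39. The difference of *Pank1* was the less firm. It was lost with DESeq2 (−0.42, adjusted p = 0.0716), without a filter on low counts (−0.39, adjusted p = 0.0826), on days 3 and 7 alone (−0.33, adjusted p = 0.0983) and without 1 of 5 mice, namely the first or the third of day1C, the first of day3C, the second of day3CL or the first of day7CL (−0.40 to −0.36, adjusted p from 0.0653 to 0.151). Sums of at least 30 nuclei gave neither call (*Acot11* −0.47, adjusted p = 0.143, and *Pank1* −0.44, adjusted p = 0.0785). Over all genes, those sums gave 83 calls against 204 in the main fit. Of the 6 beige markers, only *Ucp1* and *Dio2* passed the threshold in this comparison. The uncoupling protein *Ucp1* fell by 1.00 in CL against cold (adjusted p = 0.00118) and *Dio2*, which activates thyroid hormone, fell by 0.80 (adjusted p = 0.00311). The summed accessibility of the 6 beige markers was 886 to 1197 CPM in the 7 CL mice and 1100 to 1393 CPM in the 9 cold mice. The 6 T cell markers summed to 68.3 to 168 CPM in CL and 38.3 to 92.3 CPM in cold, and the 6 macrophage and dendritic markers to 47.9 to 92.3 and 38.3 to 79.2 CPM. For B cell markers the medians were 93.7 CPM in CL and 87.2 CPM in cold, and for adipocyte markers 1825 and 1712 CPM. Endothelial markers had medians of 112 CPM in CL and 146 CPM in cold, and progenitor markers of 64.7 and 81.25 CPM. Skeletal muscle markers had 52.1 and 56.55 CPM. The part of these shifts in the differences of *Acot11* and *Pank1* was not tested.

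The step from white to beige nuclei within the same mouse was also compared between treatments, a test added after the data were seen. The beige to white ratio of *Pank1* was 2.55 to 4.49 in the 9 cold mice and 1.89 to 2.49 in the 7 CL mice, so every cold mouse was above every CL mouse. For *Acot11* it was 1.85 to 3.92 in cold and 1.36 to 2.24 in CL, with overlap. At day0RT the ratios were 2.65 to 5.56 for *Pank1* and 2.98 to 4.01 for *Acot11*. On the log2 scale the step was smaller in CL by −0.68 for *Acot11* (standard error 0.14, adjusted p = 0.000655) and by −0.64 for *Pank1* (standard error 0.13, adjusted p = 0.000675). Of the 10 genes, these 2 fell, against 0.599% of the 14346 genes tested. The 2 genes were chosen by this very step, and the nuclei were divided into white and beige from the same counts. Their p-values are thus not independent of that choice, and the share of all genes is not a like background for these genes. An unadjusted p below 0.05 was found for 4 of the 10 genes and for 1681 of the 14346. *Acot1* (−0.67, adjusted p = 0.26) and *Pank4* (−0.48, adjusted p = 0.337) did not pass. Both calls held without each of the 19 mice in turn, while sums of at least 30 nuclei kept that of *Pank1* and not that of *Acot11* (−0.55, adjusted p = 0.087). Over all genes, those sums gave 97 calls against 202. The beige sums are those of the comparison before, with the same shifts in markers.

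**Figure D5:**
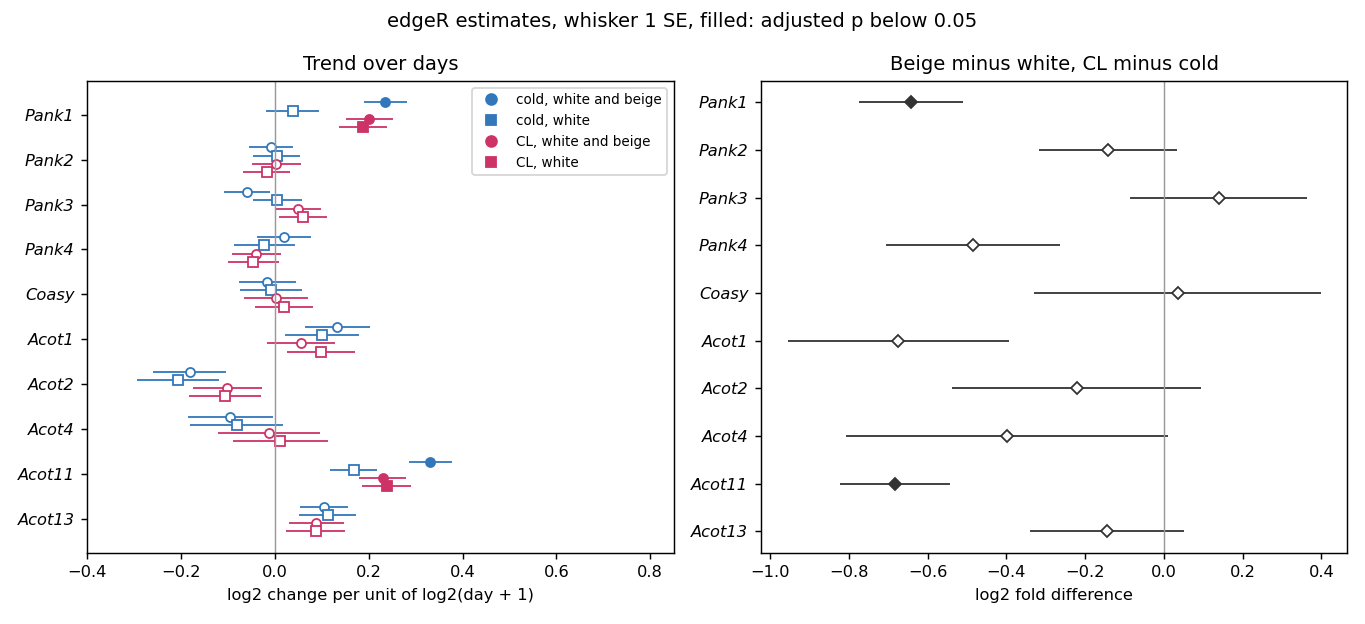
Left, change of each gene per unit of log2(day + 1) in cold and CL, for white and beige nuclei together and for white nuclei alone; right, CL minus cold difference in the beige minus white step of the same mouse; edgeR estimates with 1 standard error, filled where the adjusted p is below 0.05. Only *Pank1* and *Acot11* have filled points, and the white-only cold slopes of both are open.

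The changes over days were then read peak by peak. With peaks within 2000 bases of a gene start alone, none of the 10 genes passed in the comparisons with day0RT, the trends, the beige nuclei or the step from white to beige. Over all genes, calls went from 3216 to 448, 1232 to 142, 204 to 10 and 202 to 11 in the same order. The absence of a call among 10 genes therefore says little by itself. In the beige nuclei, *Acot11* had too few counts at these peaks to be tested between CL and cold. For *Pank1* the values shrank, to 0.12 on day 7 of cold (standard error 0.17, adjusted p = 0.835), to 0.0049 for the cold trend (standard error 0.052) and to −0.074 for the step (standard error 0.20). For *Acot11* they were 0.18 on day 7 of cold (standard error 0.36, adjusted p = 0.888) and 0.066 for the cold trend (standard error 0.11). This setting kept the main start of *Acot11* and left out the peak over its inner start. The step of *Acot11* did not shrink (−0.91 against −0.68 with all peaks), but its standard error grew from 0.14 to 0.43 (adjusted p = 0.68), so the place of that difference in the gene could not be told. The *Pank1* promoter peak had slopes of −0.02 in cold (adjusted p = 0.898) and 0.00 in CL (adjusted p = 0.998), and only 2 of its 15 peaks had enough counts to be tested. Of the 54 peaks of the 10 genes, 21 were tested in cold and 3 rose, and 22 were tested in CL and 1 rose, while 1.43% and 0.599% of all tested peaks rose. All of these were peaks of *Acot11*. The intronic peak 40594 bases past the start was at 3.32, 11.2 and 3.65 CPM in day0RT, 15.7, 13.2 and 7.87 CPM in day3C and 34.5, 21.2 and 18.7 CPM in day7C, and it was at 19.9, 9.69 and 17.8 CPM in day7CL. It rose in cold (slope 0.75, standard error 0.11, adjusted p = 9.8e-06) and in CL (0.58, standard error 0.12, adjusted p = 0.00525), where neither DESeq2 (0.66, adjusted p = 0.0791) nor a fit to the day itself (0.19 per day, adjusted p = 0.0556) called it. The peak over the inner start rose in cold (0.47, standard error 0.092, adjusted p = 0.00123), as did the intronic peak 16145 bases past the start (0.39, standard error 0.11, adjusted p = 0.0312), which lost its call without any 1 of 5 mice (the second or the third of day0RT, the first of day1C, and the first or second of day7C, slopes 0.29 to 0.41, adjusted p from 0.0548 to 0.214) and with DESeq2 (0.42, adjusted p = 0.192). The main start of *Acot11* had a slope of 0.05 in cold (adjusted p = 0.883). In white nuclei alone no member peak passed, while calls over all peaks went from 1114 to 307. The peak trends called above had too few counts in white nuclei to be tested there, so their course in white nuclei is not known.

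Other genes of coenzyme A metabolism were read from lists by function. Of 12 genes of coenzyme A supply and turnover, 11 were tested, and 0 of 66 combinations of a gene and a treated group rose and 1 fell, while 2.14% of the combinations of all genes rose and 1.58% fell. This was *Slc5a6*, a transporter of pantothenate and biotin, in day7CL (−0.63, adjusted p = 0.00689). Of 12 other thioesterases, 9 were tested and 2 of 54 combinations rose, which is near the share of all genes, *Acot3* in day3C (0.83, adjusted p = 0.0406) and *Acot12*, which hydrolyses acetyl-CoA, in day7C (1.76, adjusted p = 0.00115). The 12 acyl-CoA synthetases were all tested, and 9 of 72 combinations rose. They were *Acsl5*, which activates long-chain fatty acids, in day7C (1.11, adjusted p = 6.7e-06), day3CL and day7CL, and the acetyl-CoA synthetases *Acss1* in day7C, day3CL and day7CL and *Acss2* in day7C, day1CL and day3CL (1.08, adjusted p = 9.5e-07). The medians of a list over the treated groups ran from 0.02 to 0.21 for the 10 genes, −0.16 to 0.08 for supply and turnover, 0.00 to 0.23 for other thioesterases and 0.15 to 0.26 for synthetases, beside −0.01 to 0.00 for all genes. The lists were chosen with results of these data known.

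Outside fat, few of the genes could be tested. In B cells, where *Pank1* had its second highest level, 7 genes passed the filter and none changed between treated and day0RT mice by edgeR or DESeq2, against 0.739% of 11502 genes by edgeR. *Pank1* had a difference of 0.08 (adjusted p = 0.752) and *Pank2* of −0.33 (adjusted p = 0.0868). An unadjusted p below 0.05 was found for 3 of the 7 genes and for 1471 of the 11502. In macrophages only *Pank1* passed the filter (−0.17, adjusted p = 0.983), and 0 of 3553 genes (0%) were called by edgeR or DESeq2, with 175 below an unadjusted p of 0.05.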

How the data were processed

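Single-nucleus ATAC-seq libraries of iWAT were sequenced by the authors in 2 runs, aligned to mm10 with Bowtie2, filtered on mapping quality, duplicates and mitochondrial reads, doublets were removed, and peaks were called with MACS2 and merged. The deposited counts are a binary matrix of 189598 peaks by 32552 nuclei (145 stored entries are 0), so summed counts are numbers of nuclei with reads in a peak, without molecular identifiers. The 4 sequencing lanes of the series carry no group, and the mouse, group and cell type of each nucleus were taken from the deposited annotation. Counts were summed per mouse and cell type (at least 10 nuclei) and, per gene, over peaks on the gene body and 2000 bases upstream (GENCODE vM21, GRCm38), and 3.43% of peaks count for at least 2 genes.

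Sums were tested across mice with the quasi-likelihood test of edgeR 4.0.16 (R 4.3.3, TMM scaling, low-count filter by filterByExpr, prior count 2), with Benjamini-Hochberg adjustment over all features of a comparison and a threshold of 0.05. All 7 groups entered the comparisons with day0RT and shared the estimate of spread, and 12 mice entered each trend. DESeq2 1.42.0, other filters, promoter peaks alone, white nuclei alone, deeper nuclei and each mouse left out were alternatives. The code was tested on simulated data. The members and the gene lists were chosen with earlier results of these data known. Text names the 10 genes, their promoter peaks, the 3 peaks of *Pank1* and *Acot11* with the largest beige minus white CPM, and list genes past the threshold. The MEF2 peak, the *Acot13* intron and the other *Pank1* and *Acot11* peaks were named after their values were seen. Of the genes most like *Pank1*, 1 is not reported here. Depth per mouse was 1340376 to 6916698 counts, and the error of low sums is that of counting a few nuclei.

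Mouse numbers recur in each group. Deviations of mice with the same number from their group means had a mean correlation of −0.00246 over 63 pairs of mice (0.00162 over 126 pairs with different numbers), so the number was not taken as a pairing.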

Additional observations from a re-analysis of the deposited data

Results flagged for a closer look

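Several differences between CL and cold passed a direct test in edgeR. In white and beige nuclei together on day 3, *Acss2* was higher in CL (log2 difference 0.75, adjusted p = 5.72e-05) and *Acot3* was lower (−0.65, adjusted p = 0.0116). In beige nuclei over all days, *Acot11* (−0.57), *Acsl1*, which activates long-chain fatty acids (−0.44, adjusted p = 0.004), and *Pank1* (−0.41) were lower in CL. In the step from white to beige nuclei of the same mouse, *Acss1* (−0.83, adjusted p = 0.00154), *Acot11* (−0.68) and *Pank1* (−0.64) were lower in CL. *Acot11* and *Pank1* were chosen by that step, so its test is not independent of the choice for these genes. The beige comparisons rest on 1 day1CL sum, since the other two day1CL mice had fewer than 10 beige nuclei.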

How the results depend on the processing

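Promoter peaks alone left 0 calls in the comparisons with day0RT (5 with all peaks), the trends (4), the beige comparison of CL and cold (2) and the beige minus white step (2, where *Acot11* went from −0.68 to −0.91 with a standard error of 0.43, so that call was lost to the error and not to a smaller value). They lowered the beige minus white difference of *Pank1* from 1.47 to 0.69 and of *Acot11* from 1.14 to 0.61, and the log2 ratio of beige adipocytes to the median cell type from 1.69 to 0.89 for *Pank1*, 0.40 to −0.62 for *Pank2*, 0.04 to −0.86 for *Pank4* and 1.96 to −0.064 for *Acot11*. The promoter peak of *Acot11* is that of its main start, and the peak over its inner start was left out. In the beige comparison of CL and cold, *Acot11* had too few promoter counts to be tested. White nuclei alone left 2 trend calls, while calls over all genes went from 1232 to 629. The 4 peak calls had too few counts to be tested in white nuclei, where calls over all peaks went from 1114 to 307. The 2 beige calls became 1 with DESeq2, 1 without the low-count filter, 1 on days 3 and 7 alone and 0 with at least 30 nuclei, which also left 1 call in the beige minus white step. Over all genes, at least 30 nuclei took the beige calls from 204 to 83 and the step calls from 202 to 97. The 4 peak calls became 2 with DESeq2 and 7 without the filter. With single mice left out, calls ranged from 3 to 6 for day0RT comparisons (3 without the first day0RT mouse), 3 to 4 for trends, 1 to 2 for beige nuclei, 3 to 5 for peaks and 2 in each case for the beige minus white step. The cause of these changes was not tested. The fit with the mouse number as a replicate block gave 5 calls against day0RT, 2 in beige nuclei and 0 between treatments, in B cells and in macrophages, and changed no call count. Over all genes, edgeR and DESeq2 called 3216 and 917 combinations against day0RT, 359 and 28 between treatments, 1232 and 677 trends, 204 and 60 in beige nuclei, 85 and 13 in B cells and 202 and 85 in the beige minus white step, and 1114 and 240 peaks. Promoter peaks alone gave 448, 103, 142, 10, 12 and 11 in the same order of gene comparisons. Depth limits what could be tested, with 21 of 54 peaks in cold and 1 of the 10 genes in macrophages, and the beige sums of day0RT and day1CL held 58 and 95 nuclei.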

Other observations

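In B cells, 2 of the 22 tested genes of the 3 lists passed in treated against day0RT mice, beside 0.739% of all 11502 genes. *Nudt8*, a mitochondrial hydrolase of coenzyme A, fell by 0.41 (adjusted p = 0.0447, edgeR) and *Acss3*, an acyl-CoA synthetase of short chains, rose by 1.05 (adjusted p = 0.0447).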
